A study of Mus musculus with 4 samples.

Results

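Pericellular proteolysis in mouse embryonic stem cells was followed through 9 named genes: the plasminogen activators Plat and Plau, the urokinase receptor Plaur, the activator inhibitor Serpine2, the metalloproteinases Mmp2 and Mmp14, and the metalloproteinase inhibitors Timp1, Timp2 and Timp3. Each gene was read from the probe set annotated to it alone, and 8 of the 9 had 1 such probe set; Serpine2 was not analysed here. These 8 stand among 18820 genes compared. The question was whether their transcripts differed after loss of Trim28, also called KAP1, a chromatin co-repressor recruited by KRAB zinc finger proteins. In all 8 they were higher in the knockout, by 1.77-fold for Timp1 up to 5.38-fold for Plat, and the groups did not overlap for any of them. All 8 passed the test as rises, where 14.2% of all compared genes did, and a higher knockout group without overlap was found for 26.6% of all genes.

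Total RNA of 2 wild-type samples (KAP_WT) and 2 samples with the KAP1 fl/fl genotype (KAP_KO) was hybridised to Affymetrix Mouse Gene ST 1.1 arrays, 1 array per sample. All 4 samples carry the 4-hydroxytamoxifen label, so the controls are labelled as exposed to the inducer too, while the protocol speaks of 24 h of inducer or vehicle followed by 48 h without it. The labels name neither the Cre driver nor the parental line, so the wild-type cells may be the floxed line without deletion or another line, and a difference between lines cannot be told apart from the deletion. The samples are labelled biological replicates, and nothing says whether each came from a separate clone or deletion. Cells grew on irradiated embryonic fibroblasts, with no step to remove them given. In such bulk RNA, more cells of a type and more RNA per cell cannot be told apart.

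Plasmin, the protease that dissolves fibrin and cleaves matrix proteins, is made when a plasminogen activator cuts plasminogen. Tissue-type activator acts mainly on fibrin and on cell-surface binding sites, and urokinase acts on cells that carry its receptor. Protease nexin-1, the serpin made from Serpine2, blocks both activators. Metalloproteinases degrade collagens and other matrix proteins; MMP14, anchored in the membrane, activates pro-MMP2 in a complex that also holds TIMP2, while TIMPs in excess block the active enzymes. In the early embryo, tissue-type activator is a known product of parietal endoderm and urokinase of trophoblast.

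The arrays were checked through the targeted gene. Trim28 read 11.29 and 11.37 in wild-type cells, against 8.97 and 8.92 in knockout cells, on the deposited log2 scale, and fell by 2.38 (SE 0.09, limma adjusted p = 3.39e-05). Signal remained in the knockout, where its mean stood at percentile 89.3 of the compared genes. The source of that signal was not tested. All 10 embryonic stem cell markers read above the median of the compared genes on every array. Pou5f1, the Oct4 gene, read 11.28 and 11.33 in wild-type cells, against 10.86 and 10.78 in knockout cells; of the 10 markers 7 fell and 0 rose by limma, 9 and 0 at an unadjusted p under 0.05, and 2 fell without wild-type replicate 1 or 2. Each array correlated with its partner at an r of 0.994 (wild type) and 0.995 (knockout) over all probe sets. The medians over the compared genes were 5.46 and 5.48 in wild-type cells, against 5.66 and 5.63 in knockout cells. Over all probe sets the medians were nearly level, at 4.76 and 4.75 in wild-type cells, against 4.76 and 4.77 in knockout cells.

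The regulatory sequences of the inhibitor family are shown first, since its members rose by unequal amounts, together with that of Plaur, the 1 gene among those matched whose upstream window holds an AP-1 match. RefSeq's promoter table (GRCm38.p6) matched 6 of the 9 genes: Plaur, Serpine2, Mmp14, Timp1, Timp2 and Timp3. Each line gives the 250 bases before the transcript start that the table uses, 5′ to 3′ on the gene's own strand. For the Timp genes and Mmp14 that start is the first base of the RefSeq gene, whereas the Plaur window lies inside the gene, which RefSeq places at chr7:24460937-24475970 in the same build, so it precedes a later start. Capitals mark matches, on either strand, to any of 4 motifs. The AP-1 site was searched as TGANTCA. The GC box was searched as GGGCGG. The TATA box was searched as TATAAA. The PEA3 site was searched as AGGAAG. Neighbouring GC box matches may share letters.
Timp1, chrX:20869916-20870165, plus strand: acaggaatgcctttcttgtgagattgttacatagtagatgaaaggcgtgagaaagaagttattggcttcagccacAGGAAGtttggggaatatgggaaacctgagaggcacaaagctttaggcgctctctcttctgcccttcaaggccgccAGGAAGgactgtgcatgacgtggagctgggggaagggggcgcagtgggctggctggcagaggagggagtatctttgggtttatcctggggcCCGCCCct
Timp2, chr11:118355412-118355661, minus strand: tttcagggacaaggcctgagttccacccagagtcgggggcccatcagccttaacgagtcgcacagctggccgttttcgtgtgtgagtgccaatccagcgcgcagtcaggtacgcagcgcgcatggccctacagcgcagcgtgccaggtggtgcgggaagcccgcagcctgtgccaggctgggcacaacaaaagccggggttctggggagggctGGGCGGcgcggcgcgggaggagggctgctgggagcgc
Timp3, chr10:86300162-86300411, plus strand: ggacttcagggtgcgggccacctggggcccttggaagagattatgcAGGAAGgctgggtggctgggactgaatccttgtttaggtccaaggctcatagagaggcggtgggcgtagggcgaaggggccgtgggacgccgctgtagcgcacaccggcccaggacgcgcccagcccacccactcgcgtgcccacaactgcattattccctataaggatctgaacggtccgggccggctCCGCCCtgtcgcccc
Plaur, chr7:24462233-24462482, plus strand: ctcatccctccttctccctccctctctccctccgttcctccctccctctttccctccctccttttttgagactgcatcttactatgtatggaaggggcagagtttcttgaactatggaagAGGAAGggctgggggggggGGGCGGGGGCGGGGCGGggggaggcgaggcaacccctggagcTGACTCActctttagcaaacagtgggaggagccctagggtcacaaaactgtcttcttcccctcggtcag

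All 6 windows held a GC box match, which 32.7% of the 32851 upstream windows in the table hold. A PEA3 match, present in 29.5% of all windows, lay in each of the 6 but Timp2. None of the 6 held a TATA box match (12.4% of all). The AP-1 match of Plaur lay 69 to 63 bases before that later start, and 6.75% of all windows hold one. The Timp2 and Timp3 windows had 21 and 18 CpG dinucleotides and a G+C content of 68.0% and 65.6%, against 6 and 54.4% for Timp1. Timp2 and Timp3 also had the larger rises of the 3, as given below. The Mmp14 window, with 10 CpG dinucleotides and 55.2%, belongs to a gene that rose by 1.83 on the log2 scale. The Plaur window, with 6 and 59.6%, belongs to one that rose by 1.04. A link between the composition of a window and the rise was not tested. A match to these letters is a description of the window only.

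Both plasminogen activators rose. Plat, which encodes tissue-type activator, read 4.57 and 4.71 in wild-type cells, against 6.66 and 7.48 in knockout cells. The wild-type values lie below the median of the compared genes on their arrays and the knockout values above it, and the knockout arrays differ from each other more than the wild-type ones. The mean moved from 4.64 ± 0.10 to 7.07 ± 0.58 (SD, n = 2 each), a log2 change of 2.43 (SE 0.24, limma adjusted p = 7.61e-04). That is 5.38-fold, with a 95% interval of 3.59 to 8.06, and the 98th largest rise among the 18820 genes. Plau, the urokinase gene, read 3.81 and 3.65 in wild-type cells, against 4.91 and 5.21 in knockout cells. It stayed below the array medians of compared genes in both groups, and its signal over background is unknown, so its fold holds for array values only. Its log2 change was 1.34 (SE 0.13, limma adjusted p = 6.25e-04), a 2.52-fold rise.

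The receptor moved less. Plaur, whose product is the lipid-anchored receptor that holds urokinase at the cell surface, read 7.45 and 7.05 in wild-type cells, against 8.01 and 8.58 in knockout cells. The groups were separate, but the gap between the higher wild-type and the lower knockout array was no larger than the distance between the knockout arrays. The log2 change was 1.04 (SE 0.21, 95% interval 0.54 to 1.55, limma adjusted p = 0.0118). Of the 8 calls, Plaur alone was lost when a sample was left out, where the limma adjusted p became 0.0502 (wild-type replicate 1 left out) and 0.114 (wild-type replicate 2 left out).

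Mmp14 rose more than Mmp2. Mmp14, the membrane-type collagenase gene, read 6.63 and 6.45 in wild-type cells, against 8.22 and 8.52 in knockout cells. Both knockout arrays stood well clear of both wild-type arrays. The log2 change was 1.83 (SE 0.13, 95% interval 1.52 to 2.14, limma adjusted p = 2.07e-04), or 3.55-fold. Mmp2, the gelatinase A gene, read 7.57 and 7.31 in wild-type cells, against 8.58 and 8.56 in knockout cells, so the knockout arrays nearly coincided. Its log2 change was 1.13 (SE 0.11, 95% interval 0.86 to 1.40, limma adjusted p = 7.73e-04), or 2.19-fold, and its interval does not overlap that of Mmp14.

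The 3 inhibitors were higher as well. Timp2 read 6.26 and 5.36 in wild-type cells, against 8.21 and 8.06 in knockout cells. The wild-type arrays differed by more than for any other of the 8 genes, with a mean of 5.81 ± 0.64 against 8.13 ± 0.11 (SD, n = 2 each). The log2 change of 2.33 (SE 0.27, limma adjusted p = 0.0012), or 5.02-fold, ranged from 1.88 to 2.78 with each sample left out in turn. Timp3, whose product binds the matrix and also inhibits several ADAM and ADAMTS proteases, read 5.09 and 4.62 in wild-type cells, against 7.28 and 6.98 in knockout cells. As for Plat, the wild-type values lie below the median of the compared genes on their arrays and the knockout values above it. The log2 change of Timp3 was 2.28 (SE 0.18, limma adjusted p = 2.79e-04), or 4.85-fold. Timp1, a secreted inhibitor that also acts as a growth factor, read 8.49 and 8.61 in wild-type cells, against 9.28 and 9.47 in knockout cells. Its log2 change of 0.82 (SE 0.11, limma adjusted p = 0.00207) was the smallest of the 8, and its 95% interval, 0.57 to 1.08, lies apart from those of Timp2 (1.69 to 2.96) and Timp3 (1.86 to 2.70).

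**Figure D1:**
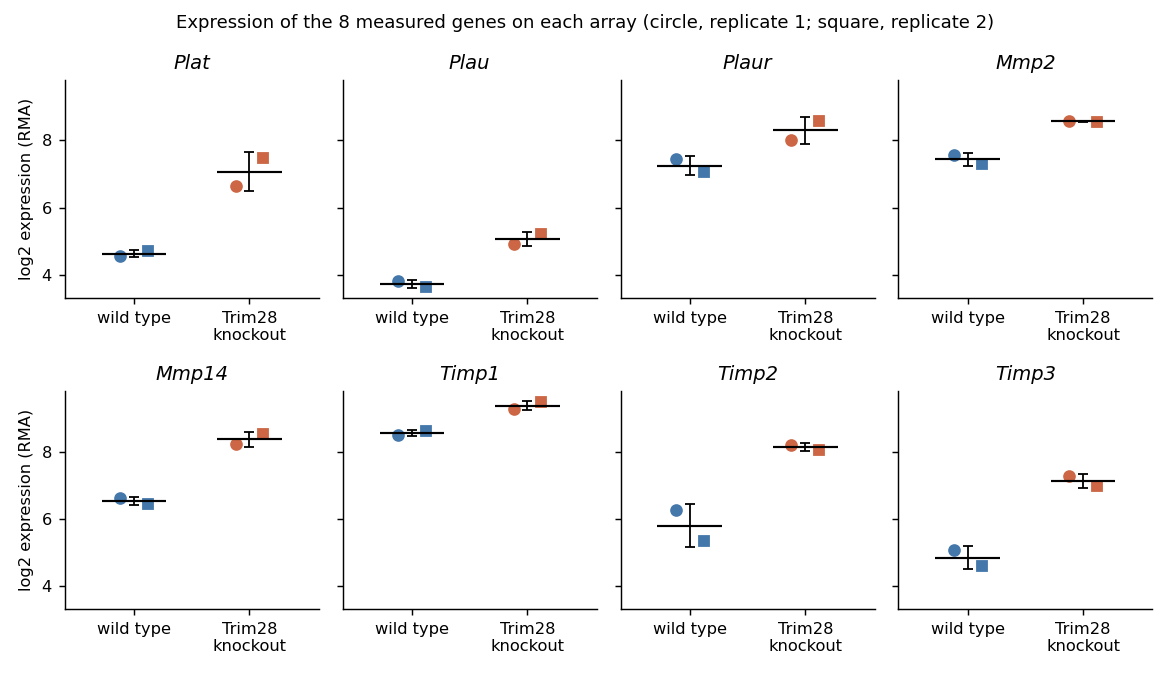
Log2 expression (RMA) of the 8 genes on each array, with wild type in blue and Trim28 knockout in orange, circles for replicate 1 and squares for replicate 2; black lines give the group mean and bars the SD (n = 2). In every panel both knockout arrays lie above both wild-type arrays, and the widest spread among wild-type arrays is that of Timp2, at 6.26 and 5.36.

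Of the 8 measured genes 7 rose at least 2-fold, where 4.44% of all compared genes did and 1.46% fell as much. Plaur (1.04) and Mmp2 (1.13) lay close to that mark, which is 1 on the log2 scale. With array medians subtracted, Plaur rose by 0.87 and Mmp2 by 0.96, below it. Over all genes 12.7% fell, 26.9% passed in either direction, and the groups did not overlap in either direction for 65.2%. The median change of the 8 was 1.58 on the log2 scale, against -0.05 over all genes. The genes were chosen with results of these data known, so this share describes them and is no independent sign. In order of the change, Plat, Timp2, Timp3, Mmp14, Plau, Mmp2, Plaur and Timp1, the 95% intervals of each pair of neighbours overlapped. Of all 28 pairs, 14 had intervals that did not: Plat, Timp2 and Timp3 each lay above Plau, Mmp2, Plaur and Timp1, and Mmp14 above Mmp2 and Timp1. Within each role the rises in array values were thus unequal, with Plat above Plau, Mmp14 above Mmp2, and Timp2 and Timp3 above Timp1. Whether RNA amounts rose in the same order was not tested.

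Replicates did not order the genes alike. In the wild type 6 of the 8 read higher on replicate 1, and Plat and Timp1 on replicate 2. In the knockout Plat, Plau, Plaur, Mmp14 and Timp1 read higher on replicate 2, and Mmp2, Timp2 and Timp3 on replicate 1. The closest profiles over the 4 arrays, each gene centred on its own mean, were sought among all compared genes by Euclidean distance. For Timp2 these were Plekha2 (distance 0.25), Atf3 (0.27) and Timp3 (0.32), and for Timp3 Plxnd1 (0.19), Tafa4 (0.19) and Chit1 (0.20). For Plat they were Dgkk (0.10), Sp5 (0.18) and Vopp1 (0.21). Plau lay nearest to Cmtm3, Pdgfb and Pwwp3b, Plaur to Vcan, Pde1a and Abracl, Mmp2 to Ltbp1, Tns4 and Rnf170, and Mmp14 to Dusp4, Dnajc3 and Scarf2, all at distances between 0.03 and 0.12.

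Other genes of plasminogen activation moved in part. Of 20 measured, 6 rose and 0 fell by limma (7 and 1 at an unadjusted p under 0.05), with a median change of 0.08. For this and the lists below, 14.2% of all compared genes rose and 12.7% fell. The largest rise was that of Anxa2, the annexin that docks plasminogen and tissue-type activator at the cell surface, which read 6.77 and 5.98 in wild-type cells, against 9.32 and 9.47 in knockout cells (log2 3.02, SE 0.24, limma adjusted p = 2.85e-04). Its partner in that docking complex, S100a10, rose by 1.36. Mrc2, an endocytic collagen receptor known to associate with the urokinase receptor, rose by 1.64, and the integrin gene Itgb1 by 1.34. The plasminogen gene itself, Plg, which the liver makes, read 3.74 and 3.68 in wild-type cells, against 3.79 and 3.72 in knockout cells, with a log2 change of 0.04 (95% interval -0.17 to 0.26). The change was 0.09 (-0.18 to 0.36) for Plgrkt, a plasminogen receptor, and 0.01 (-0.34 to 0.35) for Lrp1, the receptor that clears activator-inhibitor complexes.

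Of the 18 other metalloproteinase genes measured, 5 rose and 1 fell, and the median change was 0.01. Mmp25, a membrane-anchored enzyme of leukocytes, rose by 2.96 on the log2 scale, from 4.83 to 7.79. Mmp12, the macrophage elastase gene, read 3.51 in wild-type and 5.23 in knockout cells, below the median of compared genes in each group, and rose by 1.72. Mmp9, the gelatinase B gene, read 5.12 and 5.14 in wild-type cells, against 6.69 and 6.52 in knockout cells, a log2 change of 1.47 (SE 0.10, limma adjusted p = 1.74e-04). Mmp23 rose by 0.75, or adjusted p = 0.0561 with wild-type replicate 1 left out. The member that fell, named after its value was seen, was Mmp11, the stromelysin-3 gene, from 7.89 to 7.17. With array medians subtracted, 4 of the 18 were higher and 4 lower.

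Regulators of the metalloproteinases were higher in 4 of 10 measured genes and lower in 1 (median 0.34). Cav1, the caveolin gene, rose by 2.72 and Furin, the convertase that activates pro-MMP14, by 1.07. Cd44, a surface receptor that binds MMP14 and MMP9, rose by 0.87, and Reck, a membrane-anchored inhibitor of metalloproteinases, by 0.72. The calls of Cd44 and Reck were lost without wild-type replicate 2 (limma adjusted p = 0.0628 and 0.0568), and this list then held 2 calls in place of 5. The lower one, seen after the fact, was the convertase gene Pcsk6 (-0.68; adjusted p = 0.0545 without wild-type replicate 2). Timp4, the fourth TIMP, read 3.58 and 3.63 in wild-type cells, against 4.03 and 3.76 in knockout cells, a log2 change of 0.29 (SE 0.11) that missed the threshold (limma adjusted p = 0.109).

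**Figure D2:**
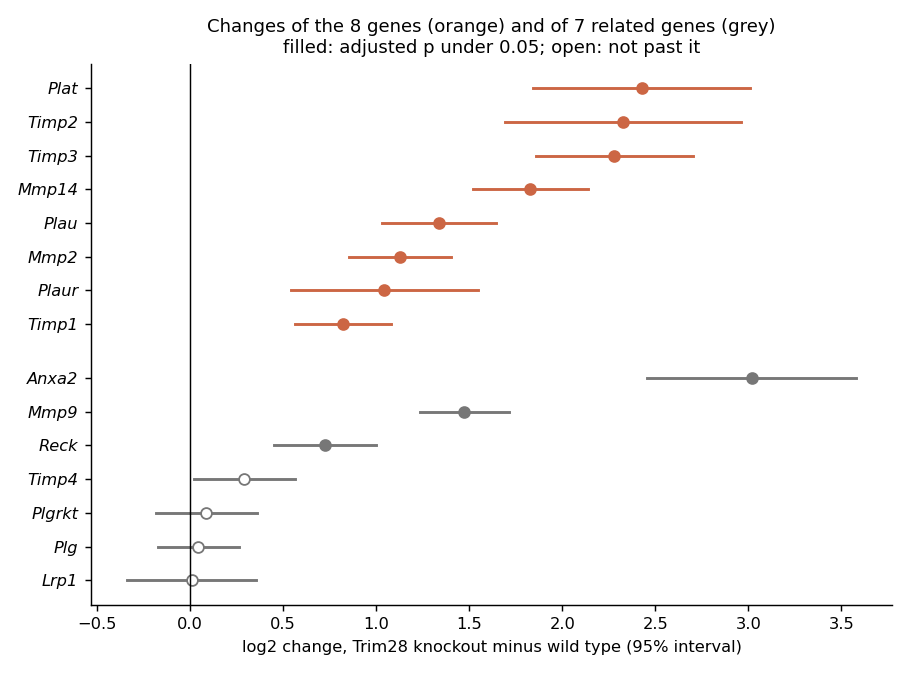
Log2 change, knockout minus wild type, with the 95% interval for the 8 genes (orange) and for 7 related genes (grey); filled points passed an adjusted p of 0.05 and open points did not. The 8 genes range from 0.82 to 2.43, while Plg, Plgrkt and Lrp1 have intervals that span 0.

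ADAM and ADAMTS genes, a related family of surface and secreted metalloproteinases, rose in 14 of 25 measured cases and fell in 1 (median 0.37). Adam19 rose by 1.52, Adamts1 by 1.25, Adamts4 by 1.22 and Adam9 by 1.19; for Adamts4 the adjusted p was 0.0507 once wild-type replicate 1 was left out. Adamts14, a procollagen N-proteinase, fell by 1.12 (adjusted p = 0.0527 without wild-type replicate 2) and was named after its value was seen. The count of calls depended on the wild-type arrays, with 8 higher and 1 lower without replicate 1 and 6 higher and 0 lower without replicate 2. With array medians subtracted 10 were higher and 3 lower.

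Among other serpins 5 of 12 rose and 0 fell by limma (6 and 0 at an unadjusted p under 0.05; median 0.26). Serpinb9, the granzyme B inhibitor gene, rose from 3.10 to 5.91, a log2 change of 2.81. Serpinh1, which encodes a collagen chaperone and no protease inhibitor, rose by 1.34, and Serpinf1, the gene of the anti-angiogenic factor PEDF, by 1.12. Serpinb8 rose by 0.41 and kept its call only without knockout replicate 1. Without wild-type replicate 1 or 2 only 2 of the 5 calls were left, and the adjusted p of Serpinf1 was 0.0771 and 0.0624; the list also fell to 3 calls without knockout replicate 2 or without dim genes. Of 22 other serine, cysteine and related proteases 6 rose and 3 fell (median 0.02; 4 and 1 without wild-type replicate 2). The falls make up 13.6% of that list, near the 12.7% of all compared genes. Bmp1, the procollagen C-proteinase gene, rose from 5.74 to 9.24, a log2 change of 3.50, more than any of the 8 genes. Prss23 rose by 2.28 and the cathepsin gene Ctsh by 1.57. F3, the gene of tissue factor, rose by 1.74 and was counted in this list, though its product is a cofactor and no protease. The 3 that fell, named after their values were seen, were Htra1 (-0.80), Dpp4 (-0.60) and Ctss (-0.34); Dpp4 lost its call without wild-type replicate 2 and Ctss with any of the 4 samples left out.

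Plau, Plaur and several metalloproteinase genes are textbook targets of AP-1 and ETS factors, so genes of these factors and of SMADs were listed too. Of 20 measured 5 rose and 2 fell (median 0.02; 3 and 1 without wild-type replicate 2). The rises make up 25% and the falls 10% of this list, where 14.2% of all compared genes rose and 12.7% fell. Ets1 rose from 4.75 to 6.75, a log2 change of 2.00, and Fosl2, the Fra-2 gene, by 1.35. The ETS factor gene Etv4 fell from 8.86 to 7.68, a log2 change of -1.18 (limma adjusted p = 0.00201). Ets2 (-0.29), Etv5 (-0.12), Elk1 (-0.06) and Etv1 (-0.03) did not pass, and like Etv4 were named after their values were seen. Jun read 7.26 and 6.18 in wild-type cells, against 9.05 and 8.07 in knockout cells, a log2 change of 1.84 (limma adjusted p = 0.0165, and 0.122 without wild-type replicate 2). Klf4, a pluripotency factor, fell by 1.34, or adjusted p = 0.1 and 0.0747 with wild-type replicate 1 and 2 left out in turn. Fos read 7.41 and 4.86 in wild-type cells, against 8.89 and 5.51 in knockout cells (limma adjusted p = 0.561). The replicate 1 array of each group was the high one for Fos, as it was for Fosb, Egr1, Jun and Junb. Of the 8 genes, Mmp2, Timp2 and Timp3 were also higher on replicate 1 in both groups, Plat and Timp1 were higher on replicate 2 in both, and Plau, Plaur and Mmp14 were higher on replicate 1 in the wild type and on replicate 2 in the knockout.

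**Figure D3:**
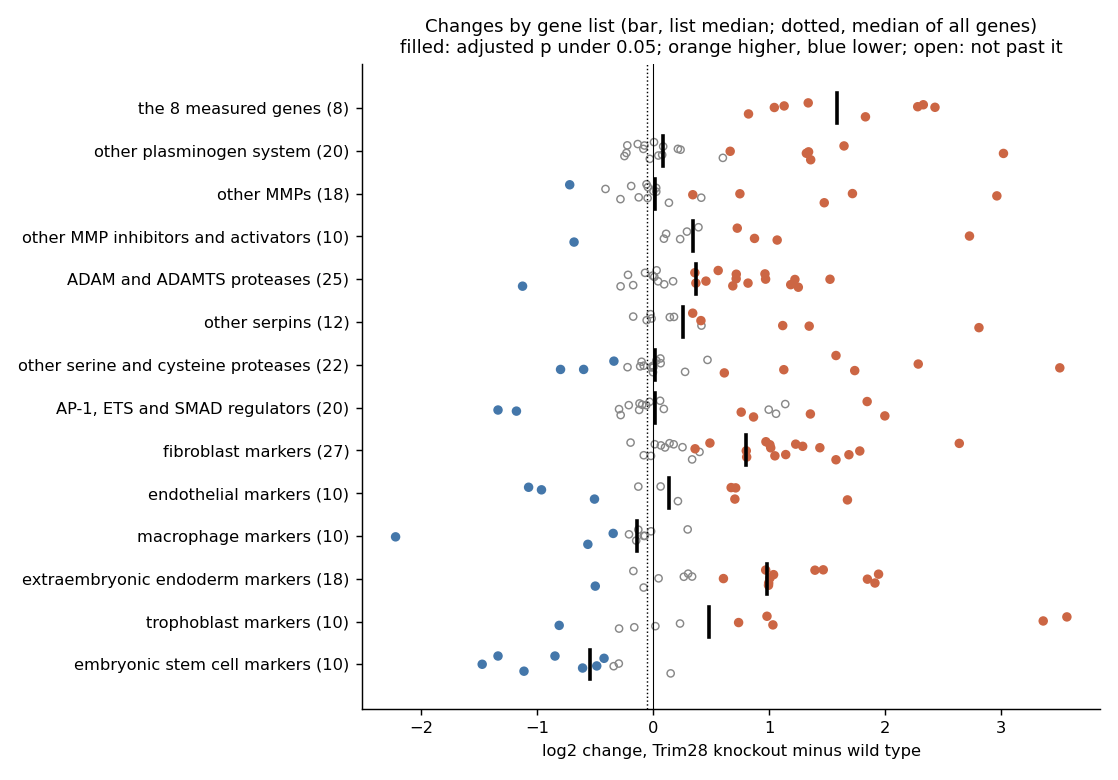
Log2 change of each measured gene by list, with the number measured in parentheses, a bar at each list's median and a dotted line at the median of all compared genes (-0.05). The 8 genes all lie to the right of 0, with a median of 1.58. The other metalloproteinases centre on 0.01, the fibroblast markers on 0.80 and the extraembryonic endoderm markers on 0.98.

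Markers of other cell types moved in the same samples. Of 27 measured fibroblast markers, which embryonic fibroblasts in the dish would also express, 16 rose and 0 fell by limma (17 and 0 at an unadjusted p under 0.05; median 0.80), led by Dcn (2.64), Col1a1 (1.78) and Lox (1.69). Their log2 values summed to 140.1 and 136 for the wild-type samples, and to 159 and 158 for the knockout samples. Normalised array values have no 0, and the lowest-reading markers were Fap (2.77 in the wild type, 2.69 in the knockout) and Lum (3.06 and 3.23), neither of which passed the test, nor did Thy1 (5.56 and 5.81, limma adjusted p = 0.191). This sum was higher on replicate 1 in both groups. Replicate 1 was the higher one for 6 of the 8 genes among wild-type arrays and for 3 among knockout arrays. A sum of log2 values does not measure the number of fibroblasts. The part of fibroblasts in the rise of the 8 genes was not tested.

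Extraembryonic endoderm, whose parietal part is known to make tissue-type activator, was followed through 18 markers, of which 11 rose and 1 fell (median 0.98). The list does not separate parietal from visceral endoderm, and Pdgfra is also in the fibroblast list. Srgn rose by 1.94, Col4a2 by 1.91 and Col4a1 by 1.85. Their log2 values summed to 115.3 and 115.6 in wild-type cells, against 128 and 131 in knockout cells. This sum was higher on replicate 2 in both groups. Replicate 2 was the higher one for 2 of the 8 genes among wild-type arrays and for 5 among knockout arrays. Such a sum does not measure the number of endoderm cells either. The marker that fell, Lamc1, named after its values were seen, changed by -0.50. Gata4 (1.47), Dab2 (1.39), Cubn (1.04), Pdgfra (1.01), Sparc (0.99), Lamb1 (0.97) and Foxa2 (0.61), likewise named afterwards, rose. Amn (0.34), Lama1 (0.30), Gata6 (0.26) and Sox7 (0.05), also named after their values were seen, did not pass. The endoderm factor gene Sox17 rose by 1.00 (adjusted p = 0.051 without wild-type replicate 2), while Ttr (3.28 and 3.11) and Afp (3.47 and 3.39), products of visceral endoderm, did not pass. Of 10 trophoblast markers 5 rose and 1 fell (median 0.48; summed log2 values 58.9 and 59.1 against 67.3 and 68.0), led by Krt8 (3.56), Krt18 (3.36) and Cdx2 (1.03). Hand1 (0.98) and Plac1 (0.74), named after their values were seen, rose too. The one that fell was Tfap2c (-0.81), and Eomes (0.02), Elf5 (-0.16), Gata3 (0.23) and Ascl2 (-0.29) did not pass, all named after their values were seen. The part of these cell types in the rise of the 8 genes was not tested either.

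Leukocytes and endothelium, which make urokinase and tissue-type activator in the adult, gave other values. Of 10 macrophage markers 0 rose and 3 fell by limma, the same counts as at an unadjusted p under 0.05, with 1 fall without wild-type replicate 2 and 6 with array medians subtracted. Ptprc, the CD45 gene, read 3.69 and 3.62, and Laptm5 fell by 2.22, from a wild-type mean of 10.03. Cd68 and Cd14, named after their values were seen, fell by 0.56 and 0.34. Cd14 read 3.62 in wild-type and 3.28 in knockout cells, below the median of compared genes in each group. Cd68 lost its call without wild-type replicate 2, and Cd14 with any of the samples left out. Their summed log2 values were 45.8 and 45.0 in wild-type cells, against 42.3 and 41.5 in knockout cells, and without Laptm5 35.6 and 35.1 against 34.5 and 33.7. Their part in the values of the 8 genes was not tested. Of 10 endothelial markers 4 rose and 3 fell, or 2 and 2 without wild-type replicate 1 or 2 (summed log2 values 52.9 and 52.4 against 54.5 and 53.6). Tie1 rose by 1.67, while Tek fell by 1.07 and Pecam1, which stem cells also express, by 0.96.

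The position of each gene was set beside the change of the 10 compared genes on either side of it on its chromosome. Around Mmp14, on chromosome 14, 8 of 20 neighbours rose, where 14.2% of all compared genes did, and 0 fell by limma (also 0 at an unadjusted p under 0.05), with a median change of 0.23. With 25 genes on each side 17 of 50 rose and 0 fell (1 at an unadjusted p under 0.05), and the median was 0.03. The next genes on one side, Lrp10 and Rem2, chosen after their values were seen, rose by 1.24 and 1.17. Mmp14 itself changed more than each of these 20 neighbours. Plau, also on chromosome 14, had 3 neighbours that rose and 2 that fell (median -0.02). For the other 6 genes the medians lay between -0.14 (Timp3, 1 rise and 5 falls) and 0.10 (Plaur, 2 rises and 1 fall). Plat had 1 neighbour that rose and 6 that fell (median -0.09). The wider window changed the balance for Plat, with 8 rises and 6 falls of 50 (median 0.0021), and turned the median of Plaur to -0.10, with 4 rises and 6 falls. No test compared any window with the other genes.

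**Figure D4:**
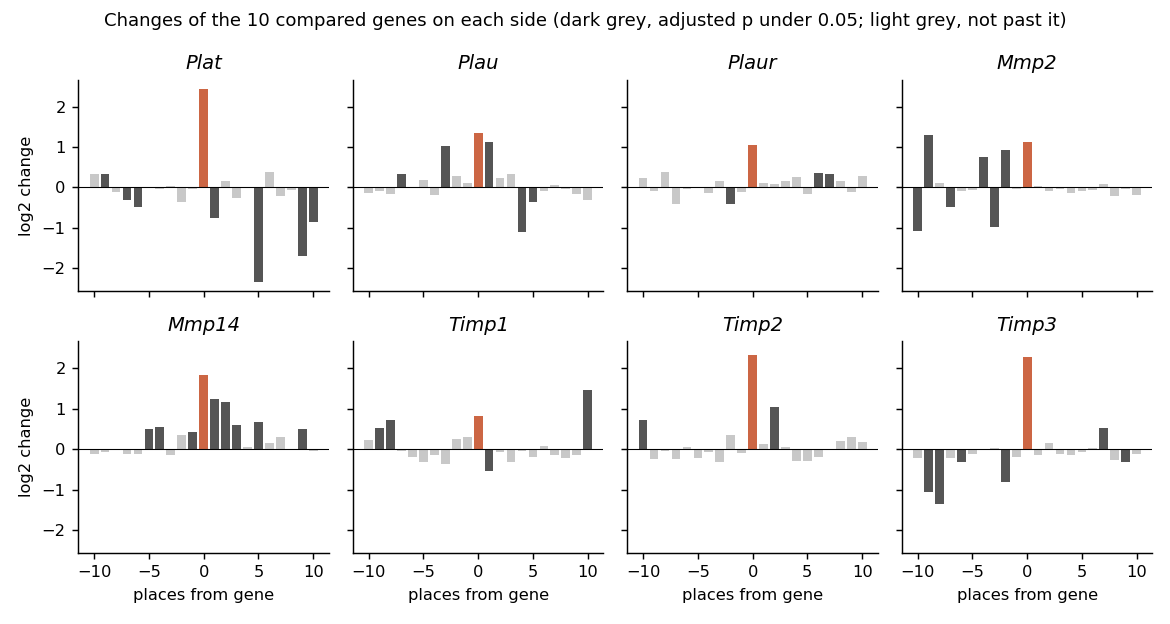
Log2 change, knockout minus wild type, of each of the 8 genes (orange, place 0) and of the 10 compared genes on each side of it in chromosome order; dark grey bars passed an adjusted p of 0.05 and light grey bars did not. Around Mmp14 8 of 20 neighbours rose and 0 fell (median 0.23, or 0.03 with 25 genes on each side), while Timp2 and Timp3 stand above neighbours with medians of -0.03 and -0.14.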

How the data were processed

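Labelled cDNA from 250 ng total RNA was, per the labels' protocols, hybridised to Mouse Gene ST 1.1 arrays. The authors deposited log2 values; the submitters' processing notes name affy and RMA; versions, settings and the annotation build are not given in the sources used here. RMA compresses differences among dim probe sets, and detection calls were not used here. Of 35556 probe sets, a platform table named 21218 with 1 gene symbol, 1881 with several, and 12457 are unnamed here. For the 1386 genes with more than 1 single-gene probe set the highest mean was kept, leaving 18820 genes, with no filter on dim genes. KAP_KO was compared with KAP_WT by limma 3.58.1 in R 4.3.3 (lmFit, eBayes), two-sided, with Benjamini-Hochberg adjustment over all 18820 genes, a threshold of 0.05, 2 residual and 4.7 prior degrees of freedom. With 2 arrays a group, their number limits the precision. The p-values weigh each change against the spread between these samples, moderated towards that of all genes. GRCm38.p6 served for names, gene order and promoter sequences. The fit was tested on simulated data.

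The genes, lists and rule for naming were chosen with earlier results of these data known. The rule names the 9 genes, Trim28, core genes including Plg, Plgrkt, Timp4, Reck, Mmp9, Mmp15, Lrp1 and Anxa2, up to 4 of each pathway list and 3 of each marker list (past the threshold, groups not overlapping, ordered by size of change), 6 fixed markers, and the 3 closest profiles of each gene changed at least 2-fold. Mmp15 was not analysed here. Alternatives were quantile normalization once more, array medians subtracted, an intensity trend, a robust prior, the replicate number as a block, each single-gene probe set alone or their mean per gene, genes below the lower quartile (25%) left out, an adjusted p under 0.1 and each sample left out.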

Additional observations from a re-analysis of the deposited data

How the results depend on the processing

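All 8 genes passed the threshold as rises under each of the 13 alternatives tried, except Plaur without wild-type replicate 1 or 2. The count over all genes was 5071; with array medians subtracted, which shifts every change by -0.17, it was 8457, with rises making up 24.4% in place of 52.8%. With each sample left out the count over all genes ranged from 2430 to 4350, and that over the 7 pathway lists, 53 of 127 measured genes, from 29 to 51. The replicate number as a block gave 5093 calls and kept all 8 genes. Deviations of same-numbered samples correlated at 0.145; with 2 pairs this does not show that the numbers pair the samples. Methods that start from scanner intensities could not be run. Signal over background is unknown, which limits what dim genes such as Plau can show.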
